A study of Mus musculus with 11 samples.

Results

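Got1l1, Slpi, Ttr and Lrrc17 are 4 of the 24062 genes counted by RNA-seq in cultured lung mesenchymal cells of embryonic day (E) 15 mice. They were chosen by their values in these same libraries, as genes with a very large rise (Got1l1, Slpi and Ttr) or fall (Lrrc17) without Sp3 that belong to no gene family tested as a group. Comparisons of Sp3-/- cells with Sp3-carrying cells are therefore given as a description, with no test. The cells were isolated from digested fetal lungs by rapid adhesion to plastic and were passaged. The 11 libraries came from 4 WT (Sp3+/+), 4 Sp3+/- and 3 Sp3-/- samples, bred from heterozygous parents. The mutation was carried by all cells of the Sp3-/- embryo, not by lung mesenchyme alone. The labels do not say whether each library is a separate embryo, so that spread and p-values here refer to these samples.

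Sp3 is a zinc finger transcription factor that binds GC-rich boxes in promoters, where it can activate or repress transcription. Got1l1 encodes a relative of the cytosolic aspartate aminotransferase Got1 and is known mainly from testis. Slpi encodes the secretory leukocyte protease inhibitor, which blocks neutrophil elastase and is made by airway epithelium and macrophages. Ttr encodes transthyretin, a carrier of thyroxine and of retinol-binding protein that is made by liver and choroid plexus. Lrrc17 encodes a secreted leucine-rich repeat protein known to dampen the formation of osteoclasts.

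Because Sp3 acts at promoters, the 250 bases before the start of the gene are shown for the pair of members with an entry in the RefSeq promoter table (2 of 4 matched, Slpi and Lrrc17), 5′ to 3′ on the strand of the gene, in the mouse build GRCm38.p6. The Slpi sequence lies on the minus strand at chr2:164356508-164356757 and the Lrrc17 sequence on the plus strand at chr5:21543277-21543526. Capitals mark a GT box, searched as GGGTGG on both strands.
Slpi: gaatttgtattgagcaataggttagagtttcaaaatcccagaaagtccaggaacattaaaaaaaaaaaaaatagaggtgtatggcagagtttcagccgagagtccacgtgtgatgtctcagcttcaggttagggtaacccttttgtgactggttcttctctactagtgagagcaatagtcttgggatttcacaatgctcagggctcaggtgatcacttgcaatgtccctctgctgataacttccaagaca
Lrrc17: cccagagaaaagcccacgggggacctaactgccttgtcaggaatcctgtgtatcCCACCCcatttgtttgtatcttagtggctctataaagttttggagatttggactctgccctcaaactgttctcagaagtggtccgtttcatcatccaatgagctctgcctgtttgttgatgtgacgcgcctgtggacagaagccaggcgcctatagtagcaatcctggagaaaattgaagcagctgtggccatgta

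Neither sequence held the GC box GGGCGG on either strand, which 32.9% of the 27025 promoters in the table had in the same window. The GT box occurred once in Lrrc17, on the minus strand and beginning 196 bases before the start, and not in Slpi. It was present in 27.7% of all promoters. G and C made up 42% of the Slpi and 49.2% of the Lrrc17 sequence, beside a median of 52% over all promoters. The first bases after the RefSeq start of Slpi were found in a GENCODE transcript of the gene, and those of Lrrc17 were not, so the annotations place the start of Lrrc17 differently.

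The libraries held 9849111 to 59297495 reads on genes, and levels are given as CPM, the count scaled to 1000000 of these reads. Every pair of libraries with the same genotype differed by more than counting noise (chi-square per degree of freedom of 15.8 or more). Sp3 itself was measured at 62.9 to 108 CPM in WT, 52.8 to 70.5 CPM in Sp3+/- and 14.6 to 19.2 CPM in Sp3-/- libraries. The Sp3-/- range lay below all others, with a log2 fold change against WT of -2.30 ± 0.211 (SE, edgeR quasi-likelihood test, adjusted p = 0.006113). Titles of 6 libraries end in an extra number, 2 or 3, that the labels do not explain. All 3 Sp3-/- titles lack this suffix, as do WT 468-4 and Sp3+/- 697-4, although the deposited counts of 697-4 carry a 2 in their name.

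**Figure D1:**
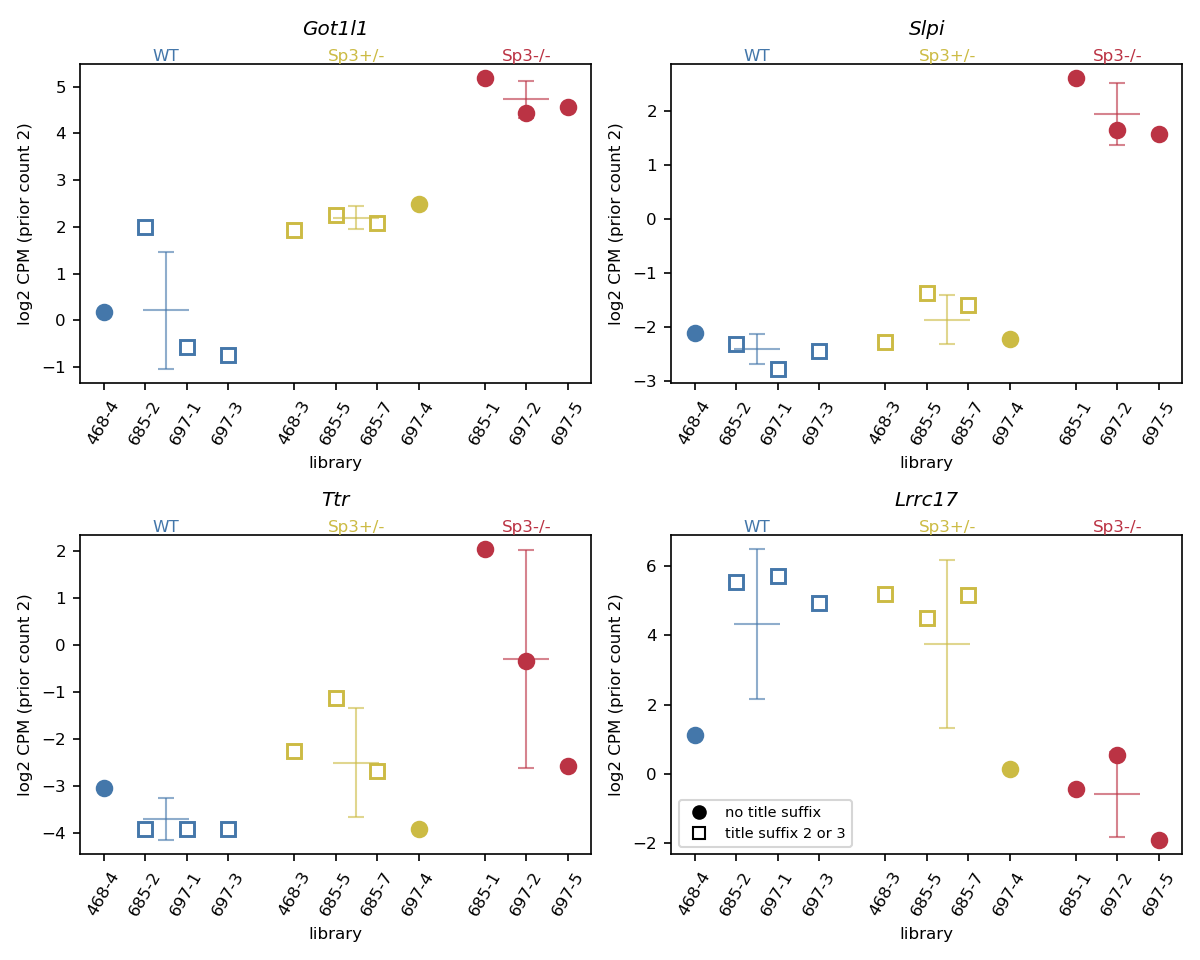
log2 CPM (prior count 2, vertical axis) of Got1l1, Slpi, Ttr and Lrrc17 in each library (horizontal axis), with the mean and SD of each genotype as a dash and bar; filled circles are libraries without a title suffix and open squares those with one, and the lowest Ttr points are libraries with 0 reads. Got1l1 and Slpi were highest in the 3 Sp3-/- libraries, Ttr spread from 0.102 to 4.1 CPM among them, and Lrrc17 was low in all 5 libraries without a suffix whatever their genotype.

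Got1l1 was lowest in WT, intermediate in Sp3+/- and highest in Sp3-/- cells. In WT libraries 38 reads (1.07 CPM) fell on Got1l1 in 468-4, 57 (4.04 CPM) in 685-2, 15 (0.609 CPM) in 697-1 and 18 (0.515 CPM) in 697-3. Sp3+/- libraries had 53 reads (3.83 CPM) in 468-3, 276 (4.65 CPM) in 685-5, 188 (4.14 CPM) in 685-7 and 113 (5.58 CPM) in 697-4. In Sp3-/- libraries there were 1290 reads (36.7 CPM) in 685-1, 960 (21 CPM) in 697-2 and 235 (23.9 CPM) in 697-5. The Sp3-/- libraries did not overlap any other, whereas WT 685-2 stood inside the Sp3+/- range and the other WT libraries below it. Mean Got1l1 levels were 1.56 ± 1.67 CPM in WT (SD, n = 4), 4.55 ± 0.764 CPM in Sp3+/- (SD, n = 4) and 27.2 ± 8.36 CPM in Sp3-/- cells (SD, n = 3).

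The edgeR log2 fold change of Got1l1 in Sp3-/- against WT cells was 4.26 (SE 0.682), and 20 of the 14025 genes tested had a larger positive value. Against Sp3+/- cells it was 2.57 (SE 0.538). Of all genes tested, 8.76% were called higher in Sp3-/- than in WT cells at an adjusted p below 0.05. The genes were picked for their levels in Sp3-/- cells, and whether Sp3+/- levels were also looked at is not recorded, so the tests of Sp3+/- against WT cells may not be independent of the choice. In that comparison Got1l1 differed by a log2 fold change of 1.68 (SE 0.541) and did not pass the test (edgeR, adjusted p = 0.9999). No gene passed it (0% of 14130 tested, with 246 at an unadjusted p below 0.05 in edgeR, and 0 called by DESeq2 or limma-voom). Without WT 685-2 the log2 fold change of Got1l1 was 2.61, still short of the threshold (edgeR, adjusted p = 0.05585), and its adjusted p lay between 0.9995 and 1 in the other fits of the comparison. Within the libraries whose titles begin with 685 the Sp3-/- level was 9.08 times the WT level, and within 697 it was 39.9 times.

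Slpi was close to the limit of counting in Sp3-carrying cells and readily counted without Sp3. WT libraries had 6 Slpi reads (0.17 CPM) in 468-4, 2 (0.142 CPM) in 685-2, 2 (0.0812 CPM) in 697-1 and 4 (0.114 CPM) in 697-3. Sp3+/- libraries had 2 (0.144 CPM) in 468-3, 19 (0.32 CPM) in 685-5, 12 (0.264 CPM) in 685-7 and 3 (0.148 CPM) in 697-4. In Sp3-/- libraries 215 Slpi reads (6.12 CPM) were counted in 685-1, 136 (2.98 CPM) in 697-2 and 29 (2.94 CPM) in 697-5. All 3 Sp3-/- libraries were above the 8 Sp3-carrying libraries, and WT and Sp3+/- ranges overlapped. Means were 0.127 ± 0.0379 CPM in WT (SD, n = 4), 0.219 ± 0.0874 CPM in Sp3+/- (SD, n = 4) and 4.02 ± 1.82 CPM in Sp3-/- cells (SD, n = 3).

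Over the pooled counts, 380 Slpi reads in Sp3-/- against 14 in WT libraries gave a ratio of 32.7 per read sequenced, with a 95% exact interval of 19.2 to 60.3 that covers counting error only. The fitted log2 fold change of Slpi was 4.93 (SE 0.413) against WT and 4.05 (SE 0.382) against Sp3+/- cells. In Sp3+/- against WT cells it was 0.88 (SE 0.437), which did not pass the test (edgeR, adjusted p = 0.9999). Slpi passed the filter of 1 CPM in the 3 Sp3-/- libraries and in no other, so it entered the tests through the group where it was high. The ratio of Sp3-/- to WT level was 43.1 within the 685 libraries and 30.3 within the 697 libraries. Of the 50-base windows of Slpi transcripts, 20.5% also occurred in a transcript of its neighbour Matn4, so reads from these windows are uncertain. Matn4 had at most 42 reads in a library.

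Ttr was the least even of the 4 genes, since most of its reads came from a single Sp3-/- library. WT libraries had 2 Ttr reads (0.0566 CPM) in 468-4 and 0 in 685-2, 697-1 and 697-3. For these counts of 0 the exact 95% interval reached 0.261, 0.15 and 0.105 CPM. Sp3+/- libraries had 2 (0.144 CPM) in 468-3, 23 (0.388 CPM) in 685-5, 4 (0.088 CPM) in 685-7 and 0 in 697-4, where the interval reached 0.182 CPM. In Sp3-/- libraries 144 Ttr reads (4.1 CPM) were counted in 685-1, 32 (0.701 CPM) in 697-2 and 1 (0.102 CPM) in 697-5. Sp3-/- 685-1 and 697-2 were above every Sp3-carrying library, and 697-5 fell inside the Sp3+/- range. Its single read, in the shallowest library, had an exact interval of 0.00257 to 0.566 CPM. Mean Ttr levels were 0.0141 ± 0.0283 CPM in WT (SD, n = 4), 0.155 ± 0.166 CPM in Sp3+/- (SD, n = 4) and 1.63 ± 2.16 CPM in Sp3-/- cells (SD, n = 3).

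Against the 2 Ttr reads of the pooled WT libraries, Sp3-/- 685-1 had a ratio of 224 (95% exact interval 60.8 to 1860) and 697-2 a ratio of 38.2 (9.76 to 329). For 697-5, with its single read, the ratio was 5.54 (0.0939 to 106). These intervals cover counting error only and describe single libraries. The pooled Sp3+/- libraries had 29 Ttr reads and a ratio of 11.4 (2.88 to 98.5). Of these, 23 came from 685-5, and the other Sp3+/- libraries had 6 reads and a ratio of 4.11 (0.736 to 41.7), a split chosen after the values were seen. The fitted log2 fold change of Ttr was 6.24 (SE 1.37) in Sp3-/- against WT cells and depends on how the fit treats the counts of 0. It was 3.21 (SE 1.01) against Sp3+/- cells, with a range of 2.90 to 4.42 when single libraries were left out and the highest value without Sp3+/- 685-5. In Sp3+/- against WT cells it was 3.06 (SE 1.57) and did not pass the test (edgeR, adjusted p = 0.9999). That value was 1.82 without Sp3+/- 685-5 and 5.50 without WT 468-4, the lowest and highest when single libraries were left out. Ttr passed the 1 CPM filter through 685-1 alone and was in no comparison of genotypes when that library was left out. The ranges above therefore lack the fit without the library that held most Ttr reads.

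Lrrc17 had high and low libraries within both Sp3-carrying genotypes. WT libraries had 75 Lrrc17 reads (2.12 CPM) in 468-4, 687 (48.7 CPM) in 685-2, 1282 (52 CPM) in 697-1 and 1028 (29.4 CPM) in 697-3. Sp3+/- libraries had 510 (36.8 CPM) in 468-3, 1330 (22.4 CPM) in 685-5, 1586 (34.9 CPM) in 685-7 and 21 (1.04 CPM) in 697-4. In Sp3-/- libraries there were 24 Lrrc17 reads (0.683 CPM) in 685-1, 62 (1.36 CPM) in 697-2 and 2 (0.203 CPM) in 697-5. The Sp3-/- libraries lay below all WT libraries, but Sp3+/- 697-4 fell inside their range and WT 468-4 was closer to them than to the other WT libraries. Mean Lrrc17 levels were 33.1 ± 22.9 CPM in WT (SD, n = 4), 23.8 ± 16.5 CPM in Sp3+/- (SD, n = 4) and 0.748 ± 0.581 CPM in Sp3-/- cells (SD, n = 3).

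The low Sp3-carrying libraries of Lrrc17 are those without a title suffix. The Sp3+/- library among them, at 1.04 CPM, carries a 2 in the name of its deposited counts, so its place in this grouping is uncertain. No fit moved that library to the group with a suffix, so the suffix values here and below hold for grouping by title only. Among the 8 Sp3-carrying libraries, the 2 without a suffix ranged from 1.04 to 2.12 CPM and the 6 with one from 22.4 to 52 CPM, a log2 difference of -4.54 (SE 0.347, edgeR with genotype as a covariate, adjusted p = 0.0001082). In this comparison 20% of 13833 genes passed the test. Lrrc17 was chosen on values that include these WT libraries, so its test may not be independent of the choice. The side without a suffix rests on 2 libraries, which differ in genotype. The adjusted p of Lrrc17 stayed below 0.05 in each alternative fit, and the log2 difference lay between -4.89 and -4.34 when single libraries were left out. Got1l1 differed by 0.02 on the log2 scale (SE 0.643) between the same libraries and did not pass the test (edgeR, adjusted p = 0.9861). Slpi and Ttr were under the filter there. With every gene that had a count, their log2 differences were -0.08 for Slpi (edgeR, adjusted p = 0.9488) and -0.96 for Ttr (edgeR, adjusted p = 0.7309).

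In Sp3-/- against WT cells the log2 fold change of Lrrc17 was -5.24 (SE 1.14), where 6 of 14025 genes had a larger fall and 9.77% of genes were called lower. With the suffix as a covariate over all 11 libraries it was -1.06 (SE 0.497), and 752 of 14130 genes had a larger fall. In that fit 10.3% of genes were called. Got1l1, Slpi and Ttr had values of 4.27 (SE 0.794), 4.99 (SE 0.582) and 6.99 (SE 1.92) in the same fit. Against Sp3+/- cells Lrrc17 had a log2 fold change of -4.76 (SE 1.31), and -0.51 (SE 0.523) with the covariate. Since all Sp3-/- titles lack a suffix, the parts of genotype and suffix in the Lrrc17 fall cannot be told apart beyond what the pair of Sp3-carrying libraries without a suffix gives. Lrrc17 in Sp3+/- against WT cells differed by -0.47 on the log2 scale (SE 0.93) and did not pass the test (edgeR, adjusted p = 0.9999).

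**Figure D2:**
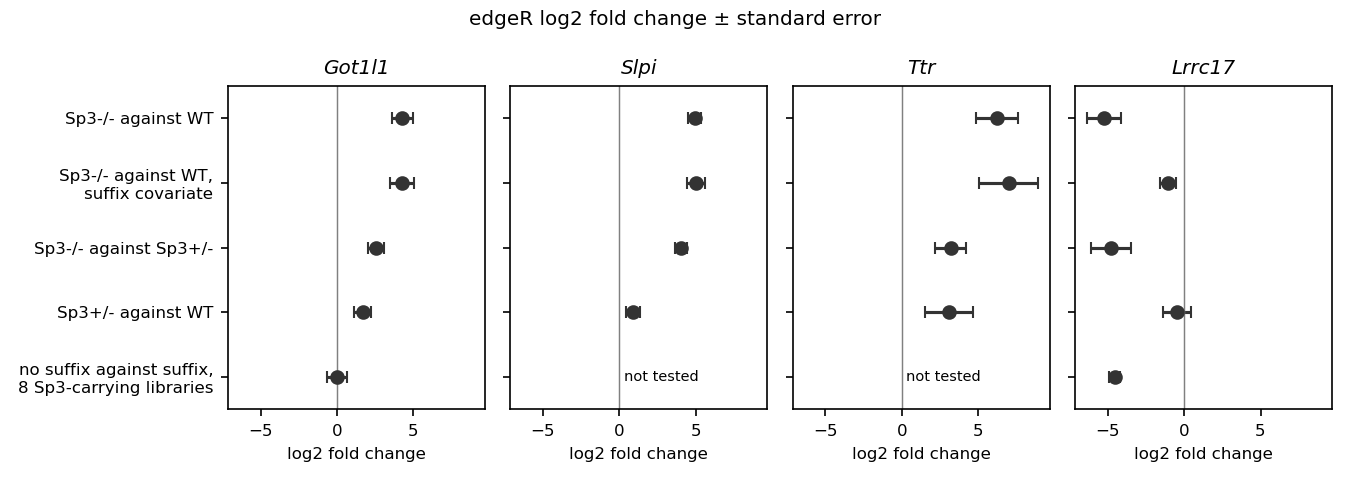
edgeR log2 fold change (horizontal axis) with its standard error for each gene in 5 comparisons (vertical axis); Slpi and Ttr were not tested between libraries with and without a suffix. Lrrc17 moved from -5.24 to -1.06 with the suffix covariate, while Got1l1, Slpi and Ttr stayed above 4 in both fits of Sp3-/- against WT.

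Levels can be compared between genes per kilobase of exon. By group means, Lrrc17 was the most abundant of the 4 genes in WT cells, at 8.78 CPM per kb, followed by Got1l1 at 0.854, Slpi at 0.108 and Ttr at 0.00739 CPM per kb. The means had the same order in Sp3+/- cells, with 6.31, 2.49, 0.186 and 0.0812 CPM per kb. The libraries low in Lrrc17 departed from it, with 0.563 CPM per kb of Lrrc17 and 0.589 of Got1l1 in WT 468-4, and 0.275 of Lrrc17 and 3.05 of Got1l1 in Sp3+/- 697-4. In Sp3-/- cells Got1l1 led with 14.9 CPM per kb, Slpi followed with 3.41, Ttr had 0.854 and Lrrc17 was last with 0.198 CPM per kb. In Sp3-/- 697-5 Lrrc17 (0.0539 CPM per kb) and Ttr (0.0532) rested on 2 reads and 1 read, under the limit of 3 counts, and cannot be ranked. Ttr spanned 40.4-fold and Lrrc17 6.69-fold among the Sp3-/- libraries, with these reads as the lowest values. Slpi and Got1l1 spanned 2.08-fold and 1.75-fold.

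The library highest in Got1l1, Slpi and Ttr was the same, Sp3-/- 685-1. Over the 11 libraries, log2 CPM of Got1l1 and Slpi had a Pearson r of 0.88, Slpi and Ttr of 0.81, and Got1l1 and Ttr of 0.73. Lrrc17 had negative values with each, from -0.74 to -0.43. These values share the split by genotype that chose the genes. Over the 8 Sp3-carrying libraries r was 0.61 for Got1l1 and Slpi, 0.80 for Slpi and Ttr and 0.44 for Got1l1 and Ttr. For Lrrc17 with the others it lay between -0.16 and 0.13. In these libraries Ttr had 0 to 23 reads and Slpi 2 to 19, with the most of each in Sp3+/- 685-5. Values of r with Slpi or Ttr therefore rest on few reads and depend on the prior count.

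Among genes with a mean above 1 log2 CPM, those most like each of the 4 over the 11 libraries were found by Pearson r of log2 CPM, as a description. For Got1l1 they were Podxl (0.97), which encodes the surface sialomucin podocalyxin, Cradd (0.96), a death-domain adaptor, and Vill (0.96), a villin relative. Podxl ranged from 4.3 to 89.1 CPM and Cradd from 3.12 to 7.09 CPM, so a like order came with unlike sizes of difference. Slpi was most like Arf2, a small GTPase, Ptgr2, a prostaglandin reductase, and Cyb561a3, a cytochrome b561 (each 0.98), which differed by log2 fold changes of 1.02, 0.45 and 0.97 in Sp3-/- against WT cells. Ttr was most like the zinc finger gene Bnc1, which is on the list of mesothelial markers used here, the semaphorin co-receptor gene Plxna4 and the zinc finger gene Zfp579 (each 0.97). Lrrc17 was most like Mpzl1 (0.99), a surface glycoprotein, Sema6a (0.98), a semaphorin, and the matrix gene Thbs3 (0.98), with log2 fold changes of -0.57, -1.43 and -1.87.

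The genes on either side were compared in Sp3-/- against WT cells. Got1l1 lies at chr8:27197459-27223845 (GRCm38.p6) and overlaps no annotated gene. Of its 10 nearest genes 6 were tested, with Rab11fip1, a recycling endosome adaptor (log2 fold change 1.21), and Adrb3, a beta-adrenergic receptor (0.95), called higher. Gpr124, an adhesion receptor (-1.45), and Eif4ebp1, a translation repressor (-0.51), were called lower. Slpi, at chr2:164354070-164356507, overlaps Mir7678 and lies beside a row of Svs genes, which encode seminal vesicle secretory proteins and had 0 to 2 reads in any library. Sdc4, a syndecan (log2 fold change 0.92), was called higher and Matn4 was not called (-0.64).

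Lrrc17 lies at chr5:21543527-21575911 inside Fbxl13, which had 2 to 23 reads per library. Of the transcript windows of Lrrc17, 2.73% also occurred in other genes, Fbxl13 among them. Gsap (log2 fold change 1.00) was called higher and Armc10 (-0.56) lower among the 8 of its neighbours that were tested. Ttr, at chr18:20664209-20674326, overlaps Gm16090. B4galt6, a galactosyltransferase (log2 fold change 0.90), and Trappc8, a vesicle tethering subunit (0.36), were called higher, and the desmoglein Dsg2 was not called (2.70, SE 0.846, edgeR, adjusted p = 0.06221). Over the 40 neighbours 21 were tested, of which 6 were called higher and 3 lower, with a median log2 fold change of 0.08 beside 0 over all genes. These calls were 28.6% and 14.3% of the tested neighbours, beside 8.76% and 9.77% of all genes. The suffix covariate left 3 neighbours called, Eif4ebp1, Sdc4 and B4galt6, and Gpr124 was at -0.64 and not called. None of the tested neighbours had a log2 fold change as large as that of the gene beside it. The genes that the neighbours lie beside were chosen for a very large change in these libraries, so this gap follows from the choice. It cannot show whether a change was confined to the chosen gene.

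**Figure D3:**
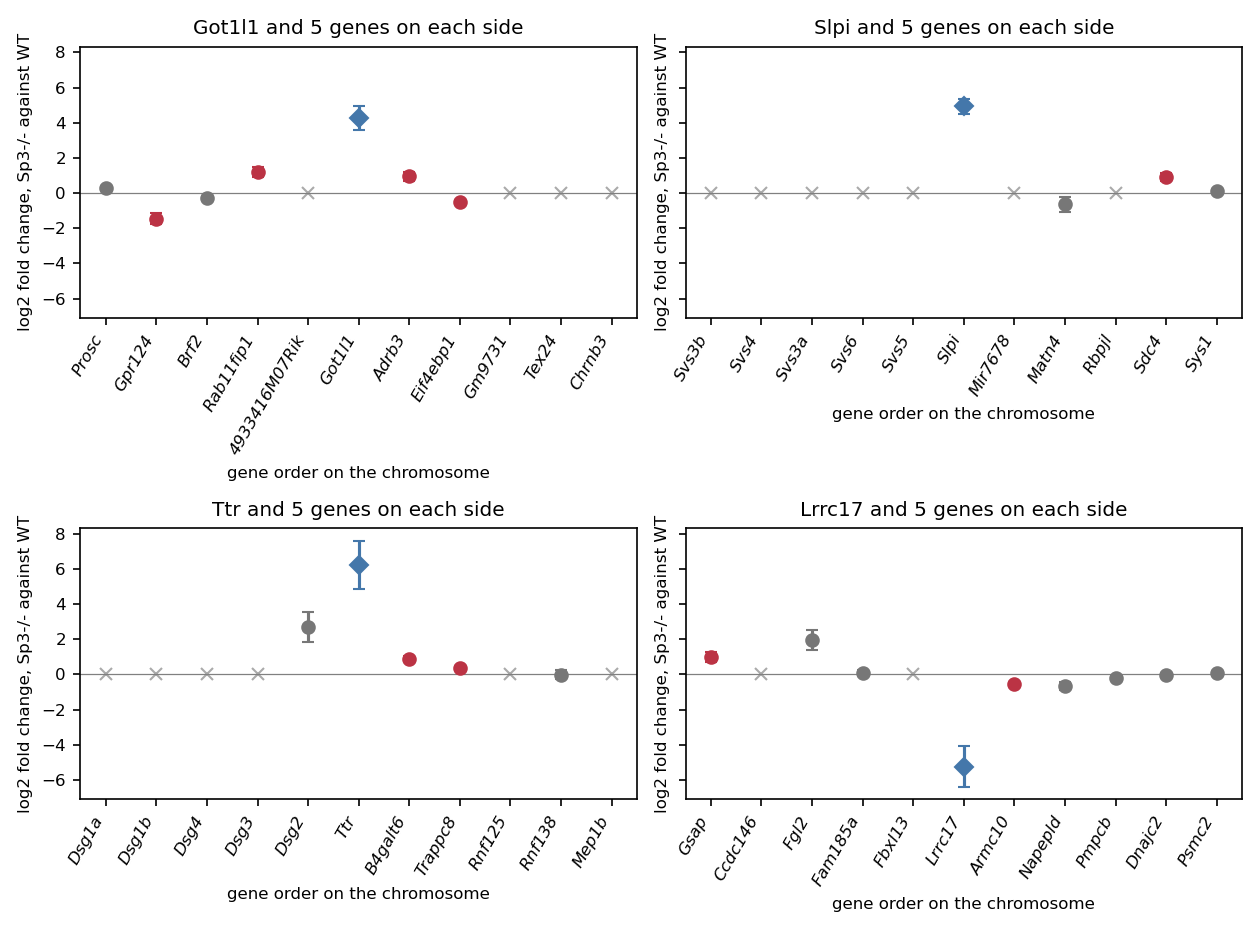
edgeR log2 fold change with its standard error in Sp3-/- against WT cells (vertical axis) of each of the 4 genes (diamonds) and the 5 genes on each side in chromosome order (horizontal axis); red points were called, grey points were tested and not called, and crosses on the zero line were not tested. The values of tested neighbours lie between -1.45 and 2.70.

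Genes that act with or beside each of the 4 were described in the same comparison of Sp3-/- with WT cells. There the median over all genes was 0, and 8.76% of genes were called higher and 9.77% lower. The lists were chosen with earlier results of these data known, so shares unlike those of all genes may follow from the choice. Of the aminotransferases and genes of aspartate and serine metabolism, 23 were tested, 3 were called higher and 2 lower (13% and 8.7%, median log2 fold change -0.08), shares near those of all genes. With the suffix covariate 1 was called in each direction. Ddo, which oxidizes D-aspartate, was higher (2.74, edgeR, adjusted p = 0.01079). Bcat1, a branched-chain aminotransferase, was lower (-2.57), as was Psat1 of serine synthesis (-1.03). Got1 itself had a log2 fold change of 0.51 (edgeR, adjusted p = 0.04182), which with the suffix covariate was 0.24 (edgeR, adjusted p = 0.1475), and the mitochondrial Got2 was not called (-0.07). Of 9 tested germline genes, the meiotic gene Sycp3 was higher (2.23) and the meiotic cohesin Stag3 lower (-1.96), each 11.1% of those tested. The germline genes had a median of -0.01, and with the covariate Stag3 was not called.

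Of 17 tested serine proteases and inhibitors, 5 were called higher and 0 lower (29.4% and 0%, median 0.57). This list holds several families and not only that of Slpi. The largest rises were in Wfdc17 (2.94), a relative of Slpi, Spint1 (2.78), a Kunitz-type inhibitor, and Serpina3n (2.51), a serpin. Of these, Spint1 also passed with the suffix covariate (edgeR, adjusted p = 0.02862), in which 3 of the list were called higher and 2 lower. The Slpi relative Wfdc2 had at most 11 reads and Elane, which encodes neutrophil elastase, at most 4 reads in a library, and neither was tested.

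Of 16 tested genes of thyroid hormone and retinol carriage, the cargoes of transthyretin, 3 were called higher and 1 lower (18.8% and 6.25%, median 0.74), and 2 higher and 0 lower with the suffix covariate. The retinoic acid binding proteins moved apart, with Crabp2 higher (2.42) and Crabp1 lower (-3.96). With the covariate Crabp2 stayed called, while Crabp1 (-2.59, edgeR, adjusted p = 0.08168) and Stra6 (0.88, adjusted p = 0.353) were not. The retinol receptor Stra6 was called higher (1.55) at no more than 34 reads, and Rbp4, which encodes the partner of transthyretin, was not called (1.69, edgeR, adjusted p = 0.05564). Of 28 genes secreted by hepatocytes or defining them, 7 were tested and 3 (42.9%) called higher, beside 8.76% of all genes. These were the apolipoproteins Apoe (3.14) and Apoc1 (2.62) and transferrin, Trf (2.26). Trf alone was called with the suffix covariate (1.54), with Apoe at 1.74 (edgeR, adjusted p = 0.05322) and Apoc1 at 1.56 (adjusted p = 0.248). The defining liver markers were at or near 0, with 0 to 3 reads for Alb and 0 to 2 for Hnf4a in any library. The hepatocyte list summed to 267 to 2060 CPM in WT, 288 to 1630 CPM in Sp3+/- and 2630 to 9000 CPM in Sp3-/- libraries. Apoe alone reached 8490 CPM. WT 468-4 and Sp3+/- 697-4 had the highest sums of their genotypes, as they did for the macrophage markers below. In the choroid plexus list, 6 were tested, and Calml4 (-1.76) and Aqp1 (-1.60) were called lower (33.3%, beside 9.77% of all genes). Folr1 was not called (1.32), and Otx2 had 1 read in all libraries together. With the covariate 0 of the choroid plexus list were called by edgeR. Choroid plexus markers summed to 31.2 to 58.9 CPM in WT, 39 to 47.5 CPM in Sp3+/- and 46.7 to 95.9 CPM in Sp3-/- libraries. The part of either list in the Ttr level was not tested.

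Of 22 tested leucine-rich repeat matrix genes, the kin of Lrrc17, 3 were called higher and 7 lower (13.6% and 31.8%, median -0.30). Aspn (-5.47), which encodes asporin, Lrrn3 (-3.66) and Ogn (-2.85), which encodes osteoglycin, had the largest falls. With the suffix covariate 1 was called higher and 5 lower (median 0.07), with -3.62 for Aspn and -2.10 for Lrrn3, both called, and -1.53 for Ogn, not called. Of 12 tested genes of the osteoclast axis, Tnfrsf11b, the decoy receptor of RANKL (-1.23), and Plcg1 (-0.61) were called lower and Traf6 (0.58) higher. These were 16.7% and 8.33% of those tested, beside 9.77% and 8.76% of all genes. With the covariate 0 of the osteoclast axis were called (edgeR, where 4026 of all genes had an unadjusted p below 0.05). Tnfsf11, which encodes RANKL, had at most 17 reads and was not tested.

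**Figure D4:**
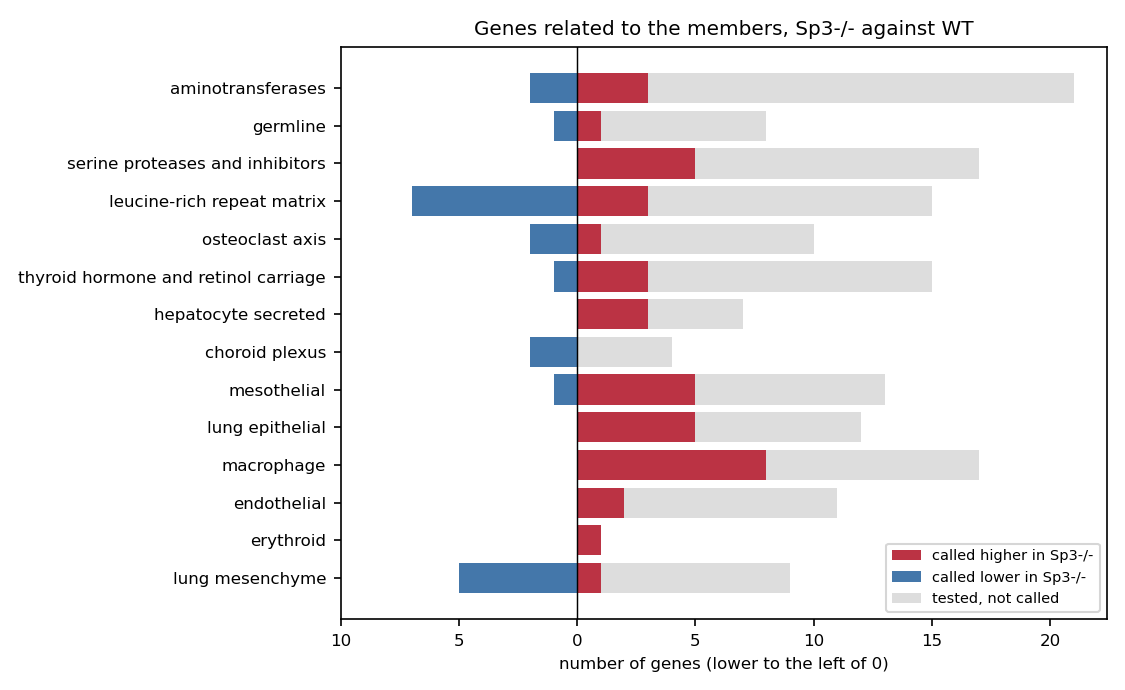
Number of genes of each list (vertical axis) called higher (red, to the right), called lower (blue, to the left) or tested and not called (grey) in Sp3-/- against WT cells, by an edgeR adjusted p below 0.05. Macrophage genes had 8 called higher and 0 lower of 17, and leucine-rich repeat matrix genes 3 higher and 7 lower of 22.

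Markers of other cell types were described in the same way, and their lists were also chosen with earlier results known. In bulk samples fewer cells of a type and less RNA per cell cannot be told apart. Of 17 tested macrophage markers 8 were called higher (47.1%), with Lyz2 (2.73), C1qa (2.70) and C1qc (2.56) the largest and Ptprc not called (2.31, edgeR, adjusted p = 0.06217). Their summed level was 828 to 4590 CPM in WT, 502 to 4080 CPM in Sp3+/- and 4340 to 15000 CPM in Sp3-/- libraries. WT 468-4 and Sp3+/- 697-4, the Sp3-carrying libraries with least Lrrc17, had the highest sums of their genotypes. Their Slpi levels of 0.17 and 0.148 CPM rest on 6 and 3 reads. Whether Slpi follows these sums was not tested. In the fit with the suffix covariate 0 macrophage markers were called by edgeR.

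Lung epithelial markers summed to 104 to 147 CPM in WT, 117 to 157 CPM in Sp3+/- and 276 to 392 CPM in Sp3-/- libraries. Of 12 tested, 5 were called higher (41.7%), led by Cdh1 (4.81), Aqp5 (3.62) and Epcam (3.12), and 4 were called with the suffix covariate. Epcam had 0 to 43 reads in a library. Mesothelial markers summed to 1120 to 2390 CPM in WT, 1980 to 3390 CPM in Sp3+/- and 2880 to 7340 CPM in Sp3-/- libraries. Of 14 tested, 5 were called higher and 1 lower (35.7% and 7.14%, beside 8.76% and 9.77% of all genes). Msln was at 2.44, Krt7 at 1.90 and Upk1b at 1.79, and Upk3b was not called (0.98). With the suffix covariate 1 mesothelial marker was called higher and 1 lower, and Msln (2.44, edgeR, adjusted p = 0.09306), Krt7 (1.74, adjusted p = 0.09459) and Upk1b (1.24, adjusted p = 0.07992) were not called. Their part, and that of the macrophage and epithelial genes, in the levels of Got1l1, Slpi, Ttr and Lrrc17 was not tested.

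Endothelial markers had 2 of 11 called higher (18.2%, beside 8.76% of all genes), Vwf (2.22) and Esam (1.89). Pecam1 (0.02) and Cdh5 (-0.27) were not called. The sum of the markers was 48.2 to 130 CPM in WT, 62 to 104 CPM in Sp3+/- and 127 to 150 CPM in Sp3-/- libraries. With the suffix covariate 0 were called by edgeR, with Vwf at 0.71 and Esam at 1.70. The erythroid list had a single tested gene, Alas2 (1.66), which was called higher and was not with the covariate (1.30, edgeR, adjusted p = 0.2799). Of 14 tested markers of lung mesenchyme, the labelled cell type, 5 were called lower and 1 higher (35.7% and 7.14%). Over all genes 9.77% were called lower and 8.76% higher. With the covariate, where 10.3% of all genes were called, 3 mesenchyme markers were called lower and 1 higher. Fgf10 (-2.54), a growth factor for the airway, and Pdgfrb (-2.13) fell, Wnt2 (2.12) rose but was not called with the covariate (1.24, edgeR, adjusted p = 0.16), and Col1a1 (-0.92) and Pdgfra (-0.85) were not called. Their sum was 13300 to 22700 CPM in WT, 15100 to 22300 CPM in Sp3+/- and 7280 to 19500 CPM in Sp3-/- libraries, so that mesenchymal markers were abundant in every library.

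Of the list genes named as called, Ddo, Bcat1, Crabp2, Aqp5 and Pdgfrb stayed at an edgeR adjusted p below 0.05 whichever of the 7 WT and Sp3-/- libraries was left out. The others lost the call or the test in at least 1 such fit. The number of all genes called was 2599 with all 7 libraries, 4179 without WT 468-4, 893 without WT 685-2, 766 without WT 697-1, 802 without WT 697-3, 282 without Sp3-/- 697-2 and 1408 without Sp3-/- 697-5. Macrophage calls numbered 17 without WT 468-4 and 9 without Sp3-/- 685-1, and 0 or 1 without any other library.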

How the data were processed

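The authors isolated RNA with TRIzol, made TruSeq libraries, sequenced single end reads, mapped these to mm10 (STAR 2.4.5a) and tallied reads for each gene (HTSeq). The deposited values are whole-number counts per gene symbol and library. The 5 tallies of reads assigned to no gene (38.4% to 40.9% of reads) were left out. Genotypes were taken from the labels. The 4 genes and all gene lists were chosen with earlier results of these data known. CPM is the count scaled to 1000000 reads on genes. edgeR 4.0.16 was run on genes above 1 CPM in 1 or more of the libraries compared (TMM, robust glmQLFit, glmQLFTest), in R 4.3.3, with Benjamini-Hochberg adjustment over all genes. Sp3-/- was compared with WT in these 7 libraries, and other comparisons used all 11, or the 8 Sp3-carrying libraries for the suffix. The SE is the absolute log2 fold change over the root of F, and the script was tested on simulated data. Exact Poisson intervals, exact intervals of count ratios and the limit of 3 counts cover counting error only. List genes named are at most 3 called genes of largest change, with fixed markers, and the 3 genes most like each of the 4. Exon lengths and shared 50-base windows used GENCODE vM39, and positions and promoters RefSeq GRCm38.p6. Alternatives were DESeq2 1.42.0, limma-voom 3.58.1 with and without a consensus correlation within the first title number, other scalings and filters, that number as a block, a suffix covariate, a fit on unsuffixed libraries alone, and each library left out.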

Additional observations from a re-analysis of the deposited data

Results flagged for a closer look

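In WT cells, Got1l1 in 685-2 (4.04 CPM) stood apart from the other 3 libraries, with a gap to the nearest that was 0.841 of the group's whole range. Ttr in WT 468-4 (0.0566 CPM, 2 reads) stood apart from 3 libraries at 0, with a gap of 1 times the range, which rests on those 2 reads. For normally distributed values chance flags about 1 in 20 groups, and 10 groups were examined. That rate does not hold for Ttr, where any count beside 3 libraries at 0 gives a gap of 1 times the range.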

How the results depend on the processing

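No log2 fold change of Got1l1, Slpi, Ttr or Lrrc17 in Sp3-/- against WT or Sp3+/- cells changed sign in the fits tried, and those not given here moved by less than the spread between libraries. For Lrrc17 the value against WT was -1.06 with the suffix covariate and -1.37 with libraries without a suffix only, and against Sp3+/- it was -0.51 and -0.37. For Ttr it was 8.08 against WT with the first title number as a replicate block, and 8.57 against Sp3+/- with libraries without a suffix only, where the single Sp3+/- library had 0 reads. Slpi against Sp3+/- was 4.70 with those libraries. These last fits assume that the lone library varies like the others. With single libraries left out, values against WT lay between 4.50 and 5.13 for Slpi, 3.95 and 5.18 for Got1l1, -5.97 and -4.94 for Lrrc17, and 5.80 and 8.54 for Ttr, the highest without WT 468-4. Ttr was not tested without Sp3-/- 685-1, and with edgeR's filterByExpr it was not tested in Sp3-/- against WT cells. The genes called in Sp3-/- against WT numbered 2599, beside 4297 with DESeq2, 4031 with the replicate block, 3977 when the Sp3+/- libraries joined the fit, 1458 with the suffix covariate and 0 with libraries without a suffix only. Without a suffix against with one, 2761 genes were called, 1397 with the block, 356 without WT 468-4 and 1366 without Sp3+/- 697-4. Over 14 pairs of libraries of different genotype with the same first title number, deviations from the genotype means correlated above 0.1 in 7 (median r 0.0992). Of 26 such pairs with different first numbers, 10 did (median r -0.0438). These values do not settle whether the number pairs samples, and the main fits did not use it. The causes were not tested. Depth limits Ttr and Slpi in Sp3-carrying libraries, where 0 to 23 reads were counted.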
